A study of Mus musculus with 4 samples.

Results

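The 6 genes described here encode enzymes and cytokines with which myeloid cells are known to restrain T cells: Nos2, Il10, Tgfb1, Ptgs2, Ptges and Ido1. They were chosen by name and are 6 of the 32285 genes in the deposited count matrices. Each was counted in unique molecular identifiers (UMIs, 1 per captured mRNA molecule) in 4 classes of tumor cells, which were set by UMIs of other genes. C1q+ macrophages held Lyz2 with C1qb, monocytes held Lyz2 with Ly6c2, mature dendritic cells (mature DC) held Ccr7 and Fscn1, and T cells held Cd3e. A cell entered a class only if it met that rule and no other.

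The cells came from subcutaneous YUMMER1.7 melanomas, a transplanted mouse tumor line, grown in wild-type male C57BL/6J mice of 7 to 8 weeks. Mice received isotype antibody, anti-PD-1 (RMP1-14, 10 mg/kg), anti-MIF (IIID.9, 20 mg/kg, against the cytokine macrophage migration inhibitory factor) or both antibodies (anti-PD-1/anti-MIF). The long cohort was treated for 2 weeks (4 doses) and collected on day 21, and the short cohort for 1 week (2 doses) and collected on day 14. Tumor cells were sorted on CD45, the pan-leukocyte surface protein, remixed so that leukocytes were in excess, tagged by arm with a hashtag antibody and sequenced as 1 droplet library per cohort. Each arm of a cohort was therefore 1 sample, its mice were not told apart, and cohort, library, day and length of treatment cannot be told apart. With 4 arms in each of 2 cohorts there were 8 arm samples, and p-values below measure the spread among them.

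Of the 4790 cells assigned to the 4 arms, 1671 were in the long cohort (median 8242 UMIs per cell, 15039110 UMIs in all) and 3119 in the short cohort (median 5835, 19443650 UMIs). The rules gave 469 C1q+ macrophages, 1652 monocytes, 148 mature DC and 543 T cells. Another 618 cells met more than 1 rule, most often C1qb with Ly6c2 (226 long, 343 short), and 1360 met none. The macrophage class was very uneven. In the long cohort the isotype arm held 7 such cells, the anti-PD-1 arm 21, the anti-MIF arm 215 and the arm given both antibodies 34, and the short arms held 111, 35, 34 and 12 in that order, so that the 7 long isotype macrophages gave 32978 UMIs in total. Median depth was 12279 UMIs per cell in long and 5480.5 in short macrophages, 9767 and 6722 in monocytes, 8933 and 7410 in mature DC, and 5087 and 3979.5 in T cells. The 2 libraries shared 20 cell barcodes.

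The classes carried markers that their rules had not used. C1qa stood at 3946 CPM (UMIs of the gene per 1000000 UMIs of the class) in long and 1712 CPM in short macrophages, against 5.28 and 2.75 CPM in monocytes. Monocytes held Chil3 at 724 and 707 CPM and Plac8 at 3219 and 4458 CPM. Ccl22 was at 974 and 775 CPM in mature DC and absent from macrophages, and the T-cell receptor gene Trbc2 was at 303 and 568 CPM in T cells. Monocytes also held neutrophil transcripts. The 6 neutrophil markers summed to 3088 CPM in long monocytes, led by S100a8 at 1574 CPM, with 13893 CPM in the long anti-PD-1/anti-MIF arm, and to 555 CPM in short monocytes. Of 321 long monocytes 23 (7.17%) and of 1331 short monocytes 69 (5.18%) held at least 2 of these markers. All member calls were the same with and without those cells.

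The genes act by separate routes. Nos2 (inducible nitric oxide synthase) consumes L-arginine, which T cells need to divide, and yields nitric oxide. Ptgs2 (COX-2) and Ptges (microsomal prostaglandin E synthase) act in sequence to make prostaglandin E2, and Ido1 opens the breakdown of tryptophan to kynurenine. Il10 and Tgfb1 encode secreted cytokines that dampen antigen presentation and T-cell activation. In macrophages Nos2 is classically induced by interferon gamma with microbial products.

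On the mm10 assembly with GENCODE annotation the genes lie on 5 chromosomes, Il10 at chr1:131019845-131024974 (+), Ptgs2 at chr1:150100031-150108227 (+), Ptges at chr2:30889471-30929863 (-), Tgfb1 at chr7:25687002-25705077 (+), Ido1 at chr8:24584136-24597009 (-) and Nos2 at chr11:78920787-78960254 (+). RefSeq promoter windows (GRCm38.p6, 250 bases before to 50 after the start) were at hand for 3 members, Ptgs2, Ptges and Tgfb1. Those of Ptgs2 and Tgfb1 are printed because these genes gave the class differences below; capitals mark motif matches on either strand. The Ptgs2 window (chr1:150099781-150100080, + strand) and the Tgfb1 window (chr7:25686752-25687051, + strand) read 5′ to 3′:
Ptgs2: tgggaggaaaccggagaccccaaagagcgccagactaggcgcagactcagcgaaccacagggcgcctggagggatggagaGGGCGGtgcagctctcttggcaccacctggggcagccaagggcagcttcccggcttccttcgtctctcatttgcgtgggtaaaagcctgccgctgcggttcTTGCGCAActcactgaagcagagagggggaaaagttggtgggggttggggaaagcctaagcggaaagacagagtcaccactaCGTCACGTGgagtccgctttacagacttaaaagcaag
Tgfb1: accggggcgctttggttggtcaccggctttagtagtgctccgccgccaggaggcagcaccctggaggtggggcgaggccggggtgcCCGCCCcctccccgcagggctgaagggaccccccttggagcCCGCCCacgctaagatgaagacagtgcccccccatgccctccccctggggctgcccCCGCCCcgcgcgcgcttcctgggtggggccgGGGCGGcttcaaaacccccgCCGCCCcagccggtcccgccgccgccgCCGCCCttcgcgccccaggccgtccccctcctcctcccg
The Ptgs2 window held a palindromic match to the C/EBP motif TTGCNNAA starting 69 bases before the transcript start, a motif found in 10.8% of 32851 such windows. It also held the E-box CACGTG starting at base 16 after the start (7.15% of windows), inside which lies the hypoxia element ACGTG on both strands (19.6%), and which overlaps the CRE core TGACG on the minus strand (20.8%). A GC box, GGGCGG (35.7% of windows), stood 170 bases before the start. The Tgfb1 window was 77% G and C and held 6 GC boxes and no other motif searched. The Ptges window (chr2:30903248-30903547, - strand) held 2 GC boxes, 53 and 42 bases before the RefSeq start used. That start lies inside the GENCODE interval given above, not at its end. None of the 3 windows matched TATAAA (13.6% of windows), CCAAT (37.4%), the AP-1 motif TGANTCA (7.81%) or the NF-kB motif GGANTTTCC (1.25%).

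Nos2 was a myeloid transcript in both cohorts, with 728 UMIs in monocytes and 121 in macrophages. In monocytes it was at 55.5, 27.7, 30.2 and 58.2 CPM in the long arms, ordered as isotype, anti-PD-1, anti-MIF and combination here and below, and at 55.6, 55.7, 70.3 and 92.3 CPM in the short arms. In macrophages 3 of the 4 long arms had no Nos2 UMI and the long anti-MIF arm was at 8.57 CPM, while the short arms were at 79.2, 75.3, 51.1 and 171 CPM. Some of these values rest largely on 1 cell. In short macrophages 1 cell held 13 of 17 UMIs in the anti-PD-1 arm and 9 of 11 in the anti-MIF arm. In long monocytes 1 cell held 19 of 31 UMIs in the isotype arm and 22 of 40 in the combination arm. Over the 8 arms Nos2 was at 55.7 ± 20.7 CPM in monocytes and 48.2 ± 60.2 CPM in macrophages (SD, n = 8). Macrophages were the higher class in 3 of 8 arms, and the ranges overlapped. The long isotype arm gives no direction. Its 0 rests on 7 macrophages with 32978 UMIs in total, where 3 Nos2 UMIs would lie above the monocyte level. T cells held 1 Nos2 UMI and mature DC none, which put monocytes at least 24.7-fold and macrophages at least 11.7-fold above mature DC (against 3 UMIs over the group, both cohorts pooled). By cohort, macrophages were at 7.19 CPM against 3.11 CPM for 3 mature DC UMIs in the long and at 78.8 against 9.08 CPM in the short cohort. Against these floors the monocyte arms lay between 27.7 and 58.2 CPM (long) and between 55.6 and 92.3 CPM (short). The bounds within a cohort are therefore smaller than the pooled ones. The share of cells with a Nos2 UMI was 12.1% of long and 11.9% of short monocytes, against 0.395% of long T cells and 0 of 290 short T cells, which have the lower median depths given above.

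Tgfb1 was found in every class of every arm, with the highest level in monocytes and the lowest in mature DC. Monocytes held 503, 565, 704 and 571 CPM in the long arms and 666, 664, 757 and 677 CPM in the short arms. Macrophages held 606, 261, 356 and 278 CPM in the long arms and 293, 376, 344 and 528 CPM in the short arms. T cells lay between 133 and 309 CPM and mature DC between 31.6 and 178 CPM. The means over 8 arms were 638 ± 84.2 CPM in monocytes, 381 ± 124 CPM in macrophages, 244 ± 61.4 CPM in T cells and 98.5 ± 49.0 CPM in mature DC (SD, n = 8). Monocytes were above macrophages in 7 of 8 arms, the exception being the long isotype arm with its 7 macrophages, and above T cells and mature DC in all 8 with no overlap of ranges. Macrophages were above T cells in 8 of 8 arms, though the ranges overlapped.

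Ptgs2 was likewise highest in monocytes among the 4 classes. It was at 200, 181, 160 and 124 CPM in the long arms and at 252, 347, 171 and 239 CPM in the short arms of that class. Macrophages held 0, 17.4, 84.6 and 96.0 CPM in the long arms and 126, 297, 102 and 271 CPM in the short arms. Monocytes were higher in 7 of 8 arms, with the short anti-PD-1/anti-MIF arm as the exception, and over the arms of a cohort they were at 163 against 81.3 CPM (long) and 276 against 161 CPM (short). In T cells 2 UMIs were counted. Mature DC held 25, of which 13 were in the short anti-PD-1/anti-MIF arm and 12 of those in 1 cell. Leaving out the monocytes with at least 2 neutrophil markers moved Ptgs2 little, since those cells held 105 CPM and the remaining monocytes 168 CPM in the long cohort, with 184 and 281 CPM in the short one.

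**Figure D1:**
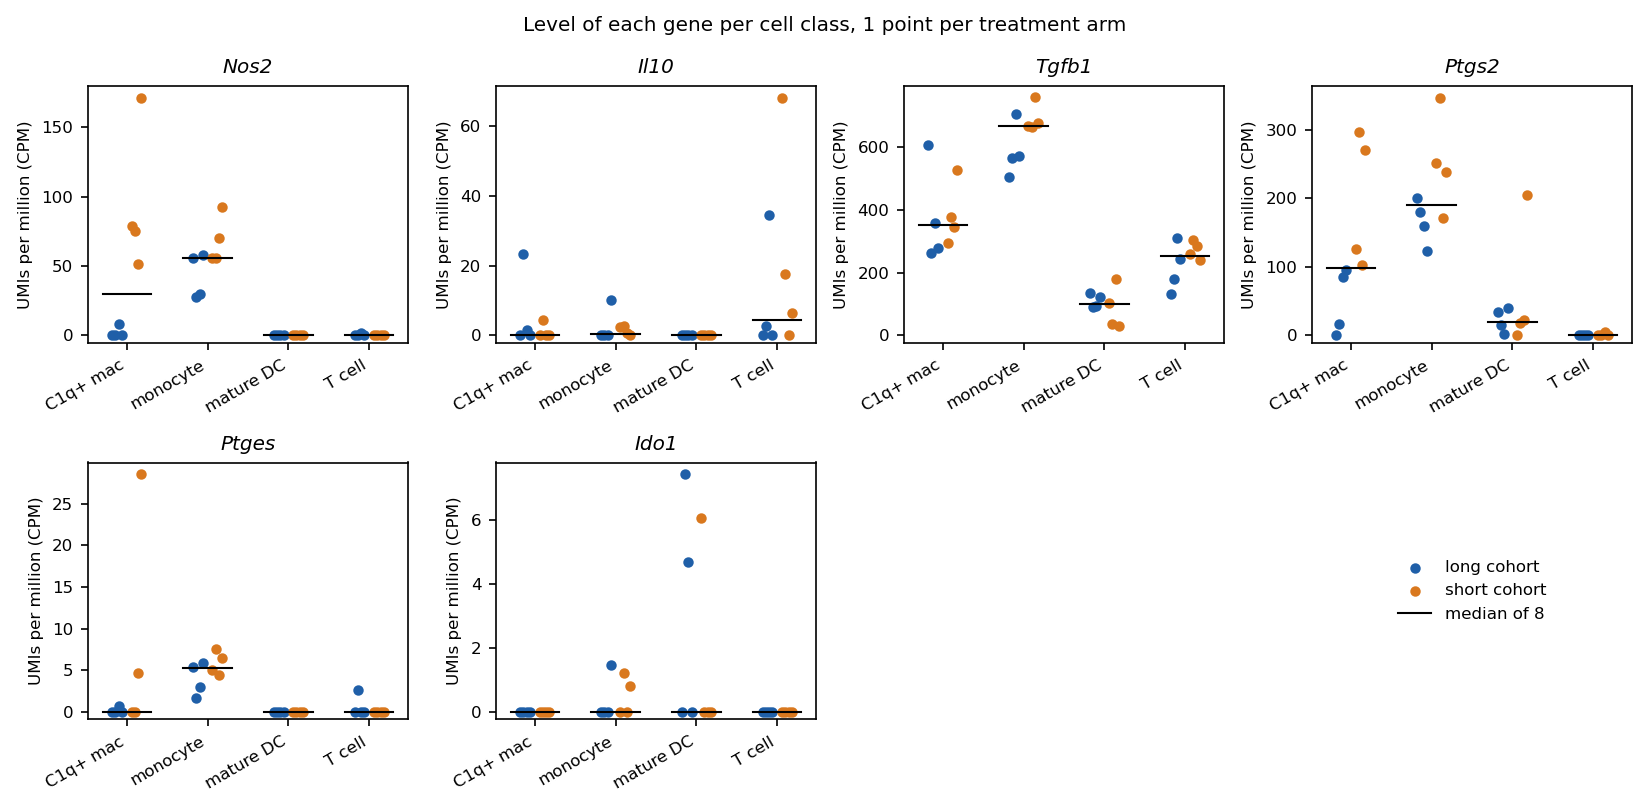
Level of each of the 6 genes (vertical axis, CPM) in the 4 classes, with 1 point per arm sample (blue long cohort, orange short cohort) and a line at the median of the 8 arms. Tgfb1 in monocytes lies between 503 and 757 CPM and its 8 points are all above those of T cells and mature DC, whereas Nos2 in macrophages runs from 0 to 171 CPM.

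These class differences were fitted across all genes with edgeR's quasi-likelihood test on UMIs summed per arm and class, with the arm as a block and Benjamini-Hochberg adjustment over 6555 genes; log2 differences are given with their SE. Between macrophages and monocytes 30.8% of genes were called at an adjusted p below 0.05, and of the 3 genes described here that passed the filter on low counts (Nos2, Tgfb1 and Ptgs2) 2 were called. Tgfb1 was lower in macrophages by a log2 difference of -0.87 (SE 0.15, adjusted p = 2.5e-05) and Ptgs2 by -0.75 (SE 0.25, adjusted p = 0.0198). Nos2 (-0.45, SE 0.32, adjusted p = 0.307) was not called; in the long cohort alone it was, at -2.60 (adjusted p = 0.00105), and in the short cohort alone it was at 0.44. Tgfb1 was called in all 22 alternative settings (-1.07 to -0.49). Ptgs2 was called in 16 of 22. Its adjusted p was 0.0723 without the long anti-PD-1 arm, 0.0511 without the short isotype arm and 0.351 in the short cohort alone.

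Against mature DC and T cells the share of all genes called was larger still, 56.7% for mature DC against macrophages, 57.4% for mature DC against monocytes, 55.2% for T cells against macrophages, 66.6% for T cells against monocytes and 60.7% for T cells against mature DC. Tgfb1 was called lower in mature DC and in T cells than in either myeloid class, and Ptgs2 lower in mature DC. Nos2 in both classes and Ptgs2 in T cells were also called lower. They held 0 to 2 UMIs there and passed the filter on low counts through the myeloid sums, so the direction was set beforehand. Il10 (46 UMIs in T cells, 25 in monocytes) and Ido1 (5 in mature DC, 7 in monocytes) were not tested. Tgfb1 was lower in mature DC than in monocytes by a log2 difference of -2.77 (SE 0.19) and lower in T cells than in monocytes by -1.58 (SE 0.15). It was higher in T cells than in mature DC by 1.19 (SE 0.21, adjusted p = 4.8e-06 by edgeR), where Ptgs2 was the other call and lower, and Nos2 was not called. Ptgs2 was lower in mature DC than in monocytes by -3.14 (SE 0.40) and lower than in macrophages by -2.40 (SE 0.45). Without the short anti-PD-1/anti-MIF arm, where 1 mature DC held 12 UMIs, these were -4.14 and -3.27. For Nos2 against T cells, which held 1 UMI, the pooled UMI ratio is given in place of a fitted value, and monocytes were 163-fold higher (counting interval 29.2 to 6462).

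The 3 remaining members were sparse and did not pass the filter on low counts in the class comparison. Among the 4 classes T cells held the most Il10 UMIs, with 22 of the 59 long UMIs (37.3%) and 24 of the 66 short ones (36.4%), while cells meeting no rule held 16 and 20. Over both cohorts T cells held 46, monocytes 25, macrophages 9 and mature DC none. The CPM was higher in T cells than in monocytes in 5 of 8 arms and lower in 2, with overlapping ranges. In the 2 lower arms, long combination and short anti-MIF, T cells held no Il10 UMI, so these give no direction. Among the higher arms, long anti-PD-1 and short combination rest on 1 T-cell UMI each. By arm T cells held 0, 1, 21 and 0 Il10 UMIs in the long arms, and the short arms had 10, 13, 0 and 1. Only 14 of 543 T cells had an Il10 UMI, and the largest arm values therefore rest on few cells. The transcription factor Foxp3 marks regulatory T cells. In the long cohort 19 of 22 T-cell UMIs were in 21 Foxp3+ T cells (129 CPM, 6 cells with a UMI), and in the short cohort 13 of 24 were in 20 such cells (117 CPM, 2 cells with a UMI). Another 10 short UMIs were in 25 T cells with Cd4 and neither Foxp3 nor Cd8a (106 CPM, 3 cells), against 1 UMI in 17 such long cells. T cells with Cd8a and no Foxp3 held none (194 long, 169 short).

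Ptges was found mainly in monocytes among the 4 classes, with 3, 1, 4 and 4 UMIs in the long arms and 12, 31, 8 and 8 in the short arms (4.92 ± 1.91 CPM, SD, n = 8). Macrophages held 5 UMIs, T cells 1 and mature DC none, and the CPM was higher in monocytes than in macrophages in 6 of 8 arms and lower in 2. In the long isotype, anti-PD-1 and combination arms and the short anti-PD-1 arm macrophages held no UMI. There 3 UMIs would be 91.0, 17.4, 9.60 and 13.3 CPM, above the monocyte values, so these arms give no direction. The 2 lower arms held 1 and 2 macrophage UMIs. In the long cohort most Ptges UMIs lay outside all classes, 31 of 49 (63.3%) in cells that met no rule, and 1 cell of the anti-PD-1 arm held 16 of them. Ido1 was barely detected at this depth. It had 12 UMIs in all cells of both cohorts, 5 in mature DC, 7 in monocytes and none in macrophages or T cells, and per UMI sequenced mature DC stood 7-fold above monocytes (counting interval 1.75 to 25.6). Mature DC were higher in the 3 arms where they held a UMI. In the other 5 arms 3 UMIs would be 30.4 to 66.9 CPM, so these give no direction. Another tryptophan-side enzyme, Il4i1, an amino acid oxidase that also acts on tryptophan, stood in mature DC at 598 and 436 CPM in the long and short cohorts, against 4.97 and 0.739 CPM in monocytes.

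**Figure D2:**
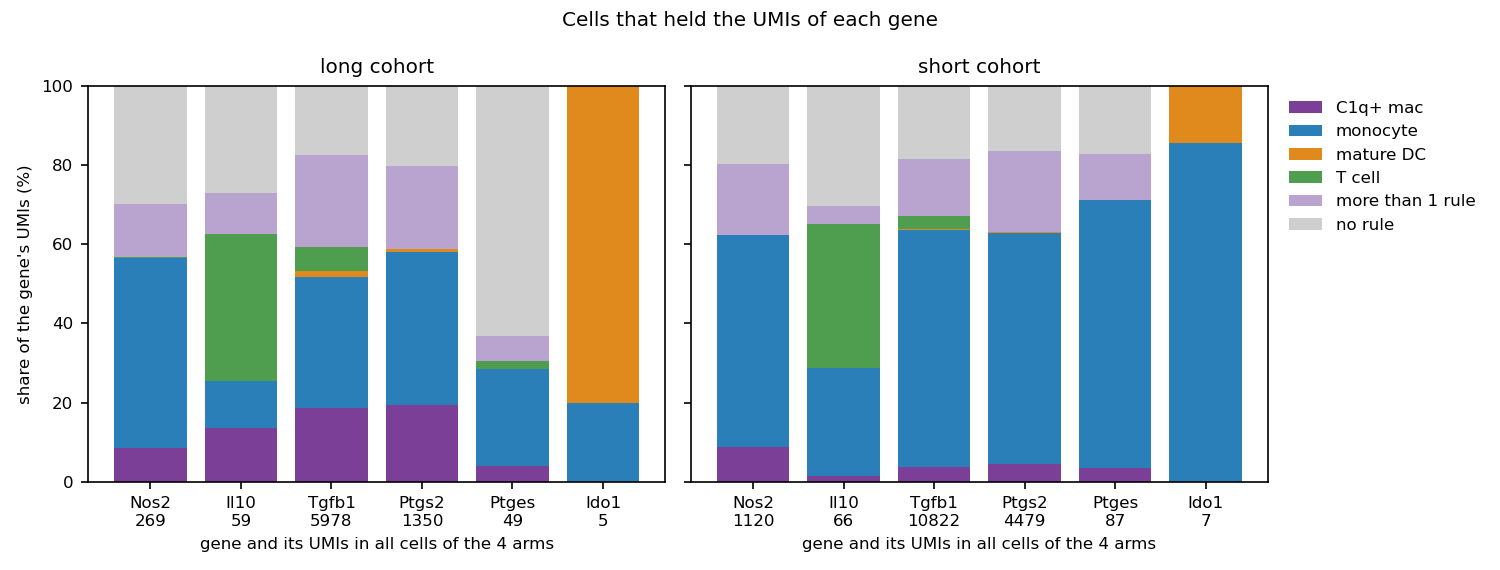
Share of each gene's UMIs (vertical axis, percent) that fell in each class, in cells meeting more than 1 rule and in cells meeting none, by cohort, with the number of UMIs under each name. Monocytes held 48.0% of Nos2 UMIs in the long and 53.5% in the short cohort, and cells meeting no rule held 63.3% of long Ptges UMIs.

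The genes around the members were counted by pathway, on lists that included these genes. The share of all genes called between macrophages and monocytes was the 30.8% given above. On the arginine and nitric oxide list 4 of 9 tested genes were called higher in macrophages than in monocytes and 2 lower. The polyamine genes Srm (log2 difference 1.49), Odc1 (0.86) and Sms (0.82) and the ornithine aminotransferase Oat (0.59) were higher. Lower were the citrulline-recycling enzyme Ass1 (-0.87) and Gch1 (-1.48), which makes the cofactor of nitric oxide synthase. On the prostaglandin list 2 of 7 were higher, the prostaglandin D synthase Hpgds (4.21) and the thromboxane synthase Tbxas1 (0.63), and 2 were lower, Ptgs2 and the exporter Abcc4 (-1.20). On the TGF-β list 2 of 13 were higher, the receptors Tgfbr1 (0.78) and Tgfbr2 (0.69), and 1 was lower, Tgfb1 itself.

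On the interferon gamma list 5 of 9 genes were lower in macrophages than in monocytes and 1 higher (median log2 difference -0.53, against -0.03 for all genes tested), among them the chemokine gene Cxcl10 (-2.36) and the guanylate-binding proteins Gbp5 (-1.63) and Gbp2 (-1.42). On the IL-4 response list 2 of 6 were higher, the lectin genes Mrc1 (3.75) and Mgl2 (3.05), and 2 lower, among them Chil3 (-5.82), which is also a monocyte marker. On the IL-10 list 5 of 11 were lower and none higher, Bcl3 (-1.49) among them, and on the hypoxia list 2 of 7 were lower, Hif1a (-0.90) and Egln3 (-1.12). On the tryptophan list 1 of 7 was lower. Mature DC, which differed from monocytes in 57.4% of all genes, had all 7 tested hypoxia genes lower (median -3.66, against -0.19 for all genes), with the glucose transporter Slc2a1 at -4.40, Vegfa at -4.16 and Ldha at -2.54. Mature DC were higher than monocytes for 3 of 7 tryptophan genes, Il4i1 (7.71), Kynu (3.24) and Haao (1.48), and for the prostaglandin E2 receptor Ptger4 (2.38). They were also higher for Pdcd1lg2 (5.13), which encodes the PD-1 ligand PD-L2, for Stat3 (1.71) and for Irf8 (2.08). The lists of these genes had more genes lower than higher. On the prostaglandin list 4 of 7 were lower and 1 higher, and on the IL-10 list 5 of 11 and 3. The interferon gamma list had 4 of 9 lower and 3 higher, and the IL-4 response list 2 of 6 and 1. Chil3 was lower, as was Tgfbi (-8.85), a gene induced by TGF-β. On the TGF-β list 9 of 13 genes were lower and 1 higher.

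Between T cells and monocytes, where 66.6% of all genes were called, the lists had 4 of 7 (prostaglandin) to all of their tested genes called. Lower in T cells were 8 of 9 interferon gamma genes, led by Ifngr2 (-4.93) and Cxcl10 (-6.15), 6 of 7 hypoxia genes, with Vegfa at -5.58, and 7 of 13 TGF-β genes, with Tgfbi at -7.13 and Nrros, which anchors latent TGF-β on myeloid cells, at -3.24. The phospholipase Pla2g4a, which frees the substrate of COX-2, was lower as well (-6.40), and Tnfaip3, an inhibitor of NF-kB signaling, was higher (2.16). Against mature DC (60.7% of all genes called), 6 of 7 tryptophan genes were lower in T cells, Il4i1 (-9.28) and Kynu (-7.46) among them, and 4 of 7 hypoxia genes were higher, with Ldha at 2.12 and Hif1a at 2.04. Against macrophages, 5 of 7 prostaglandin genes were lower and none higher in T cells (55.2% of all genes called), with Tbxas1 at -6.26, and in mature DC (56.7%) 5 were lower and 1 higher, with Tbxas1 at -4.86.

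Over the 32 points of the class comparison (8 arms in 4 classes), the genes whose levels ran most like each member were described by Pearson's r of log2(CPM + 10), with no test, since the points share libraries and arms. They were Egln3 and F13a1 for Nos2 (r = 0.92 and 0.90). For Tgfb1 they were Ptpre, Morrbid and Sec61g (0.91, 0.89 and 0.88), and for Ptgs2 Ifitm3, Rasgrp4 and Rnase6 (0.90, 0.89 and 0.88). Il10 ran most like Itgae (0.70), the regulatory T-cell gene Foxp3 (0.70) and Trbv13-3 (0.66). The values for Ptges (Hes1 at 0.82 the highest) and Ido1 (Kazn at 0.79) rest on a few UMIs.

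Treatment arms were compared in each class with an additive edgeR fit of cohort, anti-PD-1 and anti-MIF, in which the arms stand in as replicates of each other. For each term 9 comparisons of these genes could be made, with Nos2, Tgfb1 and Ptgs2 in macrophages and in monocytes, Tgfb1 in mature DC, and Tgfb1 and Il10 in T cells. None of the 9 was called for anti-MIF or for anti-PD-1 by edgeR's quasi-likelihood test with Benjamini-Hochberg adjustment, or by DESeq2. At an unadjusted p below 0.05 edgeR and DESeq2 each gave 1 for anti-MIF and 0 for anti-PD-1. Few genes of any kind were called. For anti-MIF the share was 0.0% in macrophages, 0.0119% in monocytes, 0.0% in mature DC and 0.0377% in T cells, and for anti-PD-1 it was 0.0%, 0.0119%, 0.322% and 0.0%. The only gene of the pathway lists called for either antibody was Cxcl9, higher with anti-PD-1 in mature DC (log2 difference 4.27, SE 0.74, adjusted p = 0.0237 by edgeR), where arms held 6 to 68 cells.

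In 2 of these comparisons, looked at for both antibodies, all 4 matched pairs had the same direction. The share of all genes with such agreement was not counted, so the pairs are given as values only. Ptgs2 in monocytes was lower with anti-MIF in 4 of 4 pairs, 160 against 200 and 124 against 181 CPM in the long cohort and 171 against 252 and 239 against 347 CPM in the short cohort (log2 difference -0.52, SE 0.15, adjusted p = 0.684 by edgeR). Tgfb1 in monocytes was higher with anti-MIF in 4 of 4 pairs (0.15, SE 0.12, adjusted p = 0.946 by edgeR). Ptgs2 in macrophages had higher values with anti-PD-1 in 3 pairs (0.68, SE 0.42, adjusted p = 0.9995 by edgeR). The other pair, at 17.4 CPM (3 UMIs) against 0 CPM in the 7 long isotype cells, gives no direction, since 3 UMIs in those cells would be 91.0 CPM. None of the 3 passed the test across all genes.

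**Figure D3:**
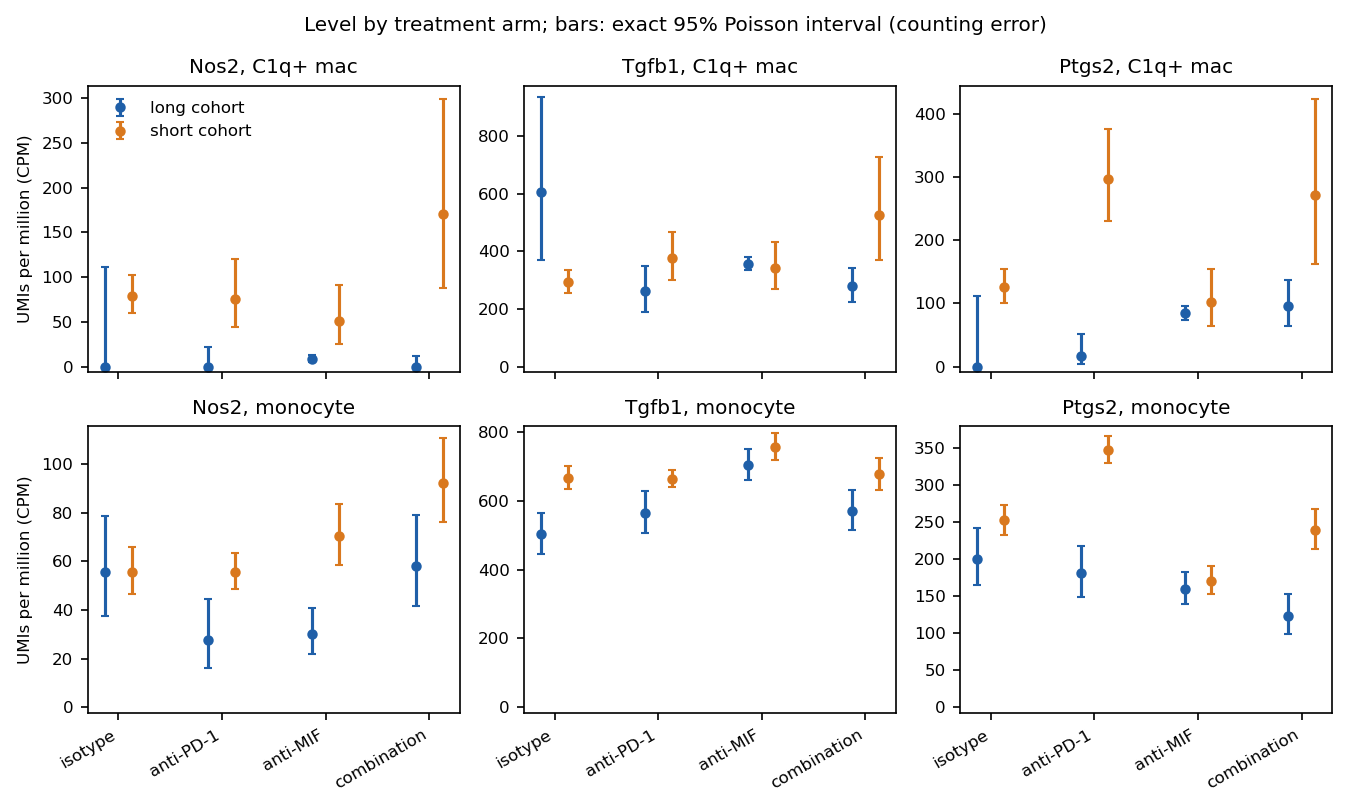
Levels of Nos2, Tgfb1 and Ptgs2 (vertical axes, CPM) by treatment arm in C1q+ macrophages and monocytes of the long and short cohorts; bars are exact 95% Poisson intervals, which cover counting error only. Monocyte Ptgs2 is lower in each arm with anti-MIF than in its partner without (for example 171 against 252 CPM in the short cohort), and 3 of the 4 long macrophage arms have no Nos2 UMI.

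Between the cohorts, long minus short, none of the 9 comparisons was called by edgeR, 5 had an unadjusted p below 0.05, and DESeq2 called 1 of the 6 it gave an adjusted p. Of all genes, 0.0% were called in macrophages, 5.66% in monocytes, 0.376% in mature DC and 7.14% in T cells. Nos2 in macrophages had the widest gap, 23 UMIs in 277 long macrophages (7.19 CPM) against 98 UMIs in 192 short ones (78.8 CPM) (log2 difference -3.86, SE 0.65, adjusted p = 0.116 by edgeR). Of the long arms 3 lay below all 4 short arms, and the 0 of the long isotype arm gives no direction, since 3 UMIs in its 7 cells would be 91.0 CPM. The difference was called in 4 of 19 alternatives, with an adjusted p of up to 0.379 in the others; DESeq2 gave it none. With cells in every class they meet the log2 difference was -1.93. One of the 4 leaves out the long anti-MIF arm, which held 215 of the 277 long macrophages (adjusted p = 0.0216 by edgeR); no long arm then holds a Nos2 UMI, so no fold is given. Nos2 in monocytes was called with cells in every class they meet (-1.08, adjusted p = 0.019 by edgeR) and with no filter (-0.77, adjusted p = 0.0025 by edgeR). Ptgs2 had negative differences in macrophages (-1.59, SE 0.47, adjusted p = 0.259) and in monocytes (-0.56, SE 0.15, adjusted p = 0.0573). With no filter its macrophage difference was called (-1.57, adjusted p = 0.0114 by edgeR). The Ptgs2 monocyte difference was called in 5 of 19 alternatives, the values below being adjusted p. These were with MULTIseqDemux (0.0439), with cells in every class they meet (0.0105), with no filter (0.0017), with DESeq2 (0.0385) and without the long anti-MIF arm (0.039). Of the pathway lists, Ldha (0.66) was called higher and Abcc4 (-0.73) lower in long monocytes. In long T cells Ldha (0.80), Pgk1 (0.59) and the receptor Il10ra (0.96) were higher and Smad3 (-3.87), Smad7 (-1.09), Ski (-1.54) and Il4ra (-1.57) lower.

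The difference of the anti-MIF effect between cohorts was tested as an interaction term. It was called for 0.489% of genes in macrophages and for 0.0% in monocytes, mature DC and T cells, and for none of the 9 comparisons by edgeR or DESeq2, with 3 at an unadjusted p below 0.05 by edgeR. Ptgs2 in macrophages came nearest (log2 difference 3.39, SE 0.83, adjusted p = 0.0962 by edgeR), with 84.6 CPM with anti-MIF against 0 without and 96.0 against 17.4 CPM in the long pairs, and 102 against 126 and 271 against 297 CPM in the short pairs. The long isotype value of 0 rests on 7 cells, where 3 UMIs would be 91.0 CPM. The adjusted p was 0.0113 without the long anti-PD-1/anti-MIF arm, 0.0178 without its short counterpart and 0.0498 without the short isotype arm. It was called in 4 of 19 alternatives, and with cells in every class they meet the log2 difference was 0.47 (adjusted p = 0.85 by edgeR). With 1 arm left out the lowest log2 difference was 2.94. Without the long anti-PD-1 arm no size is given, since the only long arm without anti-MIF is then isotype, at 0 UMIs. For Il10 in T cells the interaction had an adjusted p of 0.497 by edgeR, and of 0.00136 with no filter on low counts. No size is given for it, since the long isotype, long combination and short anti-MIF arms held no Il10 UMI in T cells. Tgfb1 in T cells was at 0.92 (adjusted p = 0.617 by edgeR).

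Nos2 was concentrated in a few cells. In the short cohort 28 of 1331 monocytes held at least 50% of the class's 599 Nos2 UMIs, against 91 monocytes for Ptgs2 and 261 for Tgfb1. Ranked over all Lyz2 cells with C1qb or Ly6c2 (824 long, 1866 short), the top 1% of cells held 48.9% of long and 31.6% of short Nos2 UMIs. The top 1% held 17.3% and 14.5% of Ptgs2 UMIs, and 5.72% and 6.05% of the more numerous Tgfb1 UMIs.

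**Figure D4:**
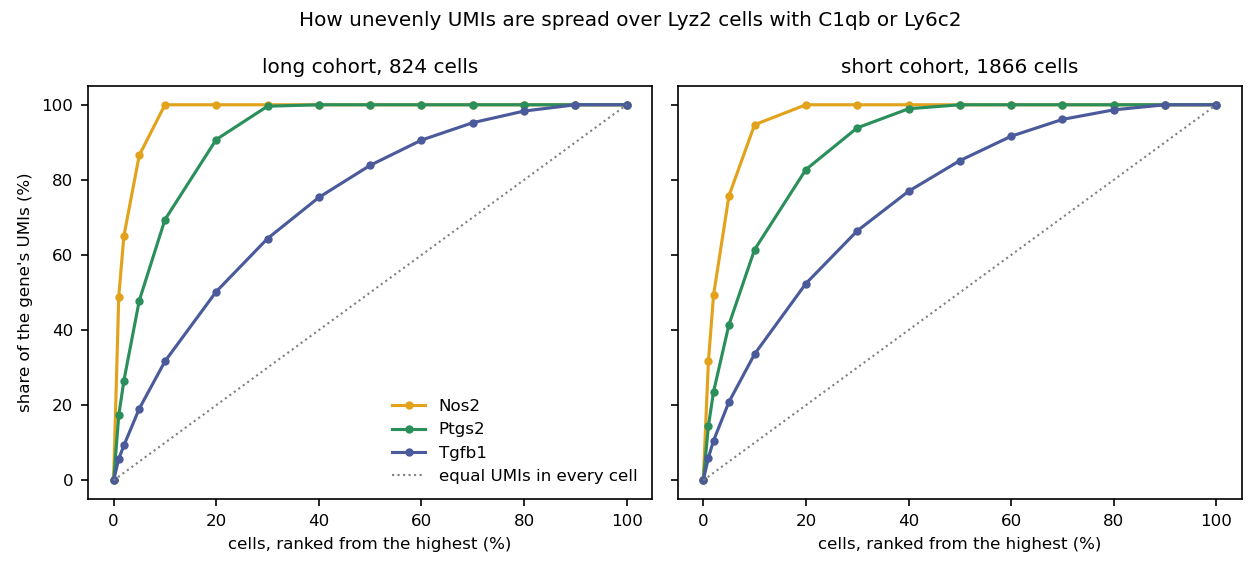
Cumulative share of each gene's UMIs (vertical axis, percent) over Lyz2 cells with C1qb or Ly6c2 ranked from highest to lowest (horizontal axis, percent of cells), for 824 long and 1866 short cells; the dotted line is an equal number of UMIs in every cell. The top 10% of cells held 69.4% (long) and 61.4% (short) of Ptgs2 UMIs but 31.7% and 33.6% of Tgfb1 UMIs.

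Shares of cells with a UMI were compared at equal depth. Cells under 2000 UMIs were left out (14 of 277 long and 40 of 192 short macrophages, 4 of 321 long and 18 of 1331 short monocytes) and the others thinned to 2000 UMIs. The median share with a UMI over 8 arms was 2.47% in macrophages and 6.90% in monocytes for Nos2, 11.7% and 20.9% for Ptgs2, and 35.3% and 63.6% for Tgfb1. Unthinned, the medians were 5.73% and 12.2%, 24.9% and 34.6%, and 68.1% and 90.9%. In T cells, which should lack it, Ptgs2 was found in 0 of 253 long cells (which limits the share of cells with a UMI, not of cells expressing the gene, to 1.45% at 95% confidence) and 0.690% of short cells, at median depths of 5087 and 3979.5 UMIs.

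Nos2 and Ptgs2 were often found in the same cells. Of the short monocytes with a Nos2 UMI at 2000 UMIs, 51.5% (exact interval 41.3 to 61.7) also had Ptgs2, against 24.4% (21.99 to 26.9) of the other short monocytes. The full depth of both sets was close, with medians of 6805 and 6757.5 UMIs. In long monocytes 50% (24.7 to 75.3) of Nos2+ cells had Ptgs2, against 18.3% (14.1 to 23.1), at medians of 8713 and 9947 UMIs. Tgfb1 was found in 59.6% (49.3 to 69.3) of Nos2+ and 65.7% (62.9 to 68.3) of other short monocytes, with overlapping intervals. The intervals cover counting error within 1 library.

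What else distinguished these cells was compared within arms. Lyz2 cells of the macrophage or monocyte rule or both, thinned to 2000 UMIs, were split by a UMI of Nos2 or of Ptgs2, summed per arm on each side, and fitted with edgeR's quasi-likelihood test with the arm as a block and Benjamini-Hochberg adjustment. Of the genes tested, 15.3% were called for Nos2 (193 higher and 114 lower of 2005) and 15.1% for Ptgs2 (257 and 132 of 2569). All 8 arms entered for Ptgs2 and 7 for Nos2. The gene used for each split was not tested in it.

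The 2 genes went with each other. Cells with Nos2 had more Ptgs2 (log2 difference 1.94, SE 0.21) and less Tgfb1 (-0.70, SE 0.19, adjusted p = 0.0077 by edgeR). In the long cohort alone and after thinning to 1000 UMIs, 1 of these 2 genes was called. Cells with Ptgs2 had more Nos2 (2.24, SE 0.22), at 149 against 28.8 CPM. Nos2 passed the filter on low counts through the cells where it was high, so the direction of that call was set beforehand. Tgfb1 was not called in cells with Ptgs2 (0.13, adjusted p = 0.755 by edgeR). For this split only 1 of the 2 genes was tested, and 0 called, in each cohort or class subset that follows: the long cohort, macrophages and monocytes. The same held at 1000 UMIs and without the short isotype or short anti-PD-1 arm.

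Hypoxia-response genes were higher in both sets of cells. Of 7 tested, 6 were higher with Nos2 and 7 with Ptgs2, with median log2 differences of 1.55 and 1.39 against -0.06 and -0.04 for all genes tested. With Nos2 these were the oxygen-sensing prolyl hydroxylase Egln3 (2.17), the vascular growth factor Vegfa (1.95), the mitophagy gene Bnip3 (1.80), the glucose transporter Slc2a1 (1.55) and the glycolytic genes Pgk1 (1.25) and Ldha (1.05), whereas Hif1a itself was not called. With Ptgs2 they were Egln3 (1.59), Slc2a1 (1.45), Bnip3 (1.41), Vegfa (1.39), Pgk1 (0.92), Ldha (0.79) and Hif1a (0.58). Egln3 was at 306 CPM with and 61.7 CPM without Nos2, and at 156 and 54.2 CPM with and without Ptgs2. It may have passed the filter on low counts only through the cells where it was high. In monocytes alone the counts were again 6 and 7 of 7. In macrophages alone none of 563 genes was called with Ptgs2, 4 hypoxia genes among them, at 1.00 for Slc2a1 (adjusted p = 0.229 by edgeR), 0.81 for Vegfa, 0.38 for Ldha and -0.28 for Pgk1. The fit for Nos2 could not be made.

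Interferon gamma genes were not raised together. With Nos2, the receptor subunit Ifngr1 (-1.12) and Irf8 (-0.92) were lower and Cxcl10 (0.72) was higher, of 8. In monocytes alone Irf8 was called (-1.06, adjusted p = 0.0402 by edgeR). Ifngr1 (-0.92, adjusted p = 0.0566) and Cxcl10 (0.48, adjusted p = 0.394) were not. In the long cohort alone none of the 3 was called, at -0.97 for Ifngr1, -0.44 for Irf8 and 0.70 for Cxcl10. With Ptgs2, Cxcl10 (0.69) was higher and Cxcl9 (-0.90) lower, of 9. Cxcl9 was not called in monocytes alone (-0.49, adjusted p = 0.177 by edgeR) or in the short cohort alone (0.0962). In monocytes alone Ifngr1 was called lower (-0.47, 0.0449) and Gbp2 higher (0.48, 0.0292). In the long cohort alone Gbp5 was called higher (1.03, 0.0194). None of the IL-4 response genes tested (2 and 3) was called in either set. Among the TGF-β genes the convertase Furin was higher (0.86 and 0.60 with Nos2 and Ptgs2) and Nrros lower (-0.99 and -0.42). Ass1 was higher with Nos2 (0.82) and with Ptgs2 (0.46), and Pla2g4a was higher with Ptgs2 (0.65).

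**Figure D5:**
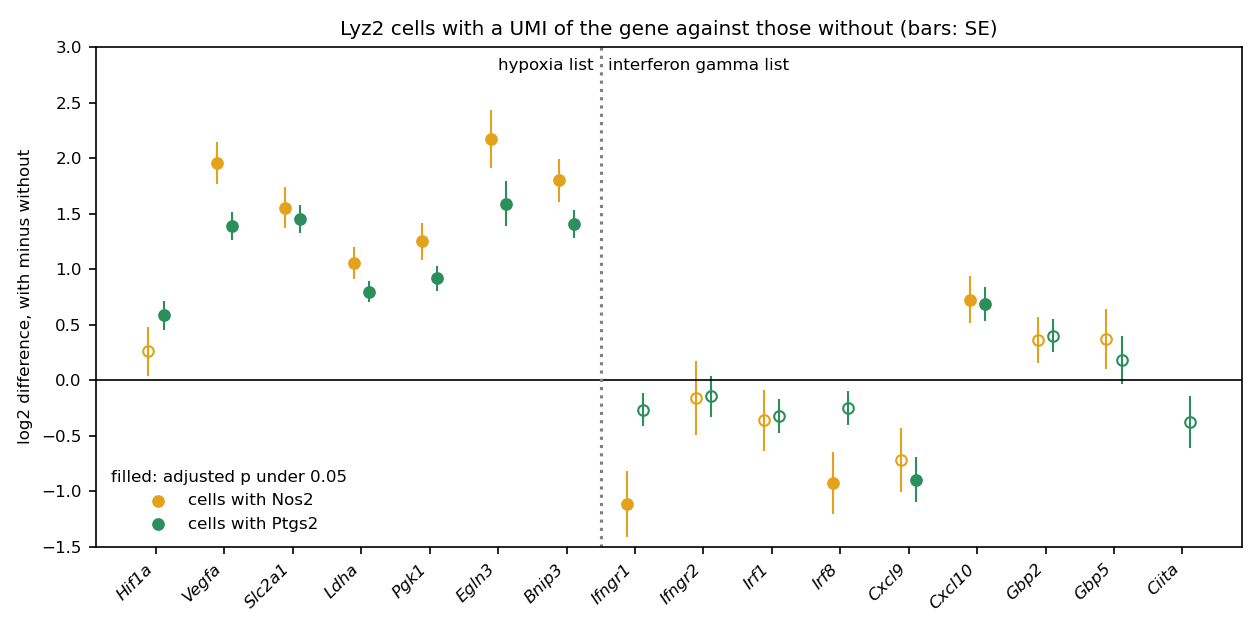
Log2 difference (vertical axis, with SE bars) of hypoxia and interferon gamma genes between Lyz2 cells with and without a UMI of Nos2 or Ptgs2, fitted over arm samples; filled points have an adjusted p below 0.05. Egln3, Bnip3, Vegfa, Slc2a1, Pgk1 and Ldha lie above 0 in both comparisons, from 0.79 to 2.17, while the interferon gamma genes scatter on both sides of 0.

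Among the genes with the lowest p, the lipid-droplet gene Hilpda was higher with Nos2 (2.39) and with Ptgs2 (2.03). With Nos2 the glycolytic and hypoxia-linked Ndrg1 (2.22), Ero1l (2.11) and Tpi1 (1.52) and the interferon-induced Rsad2 (2.09) were higher, and Gngt2 (-1.60), Gpx1 (-0.99), Nr4a1 (-1.64), Ier2 (-2.13), Foxn3 (-1.84) and Gm9733 (-2.16) lower. With Ptgs2, Slc2a1, Srgn (0.98), Basp1 (1.15) and Bnip3 were higher, and Cst3 (-0.83), C1qa (-0.90), Gngt2 (-0.78), Ppia (-0.46), Gpx1 (-0.50) and C1qb (-0.77) lower; C1qb is part of the rule that chose these cells.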

How the data were processed

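The authors aligned droplet 5′ gene-expression and hashtag libraries to mm10 with Cell Ranger 7.1.0 and deposited 1 count matrix of UMIs per cohort, with genes and hashtags as rows (processing notes also name R 4.3.2, Seurat 5.1.0 and DESeq2). From these counts, hashtags were called with HTODemux (Seurat 5.3.0, R 4.3.3) at a quantile of 0.99, which removed 425 long and 626 short doublets and 24 and 176 untagged barcodes of 2516 and 4987 (23702910 and 31799441 gene UMIs). No doublet caller was run on the genes. Cells had 200 to 5000 genes and at most 5% mitochondrial UMIs. Another hashtag, named anti-PD1-MIF-DDT in the deposited files and missing from the sample labels, was not compared. UMIs were summed per arm and class (at least 5 cells) and tested with edgeR 4.0.16 (filterByExpr, TMM, quasi-likelihood, Benjamini-Hochberg over all genes tested, called at 0.05). DESeq2 1.42.0, other demultiplexing, filters, class rules and left-out arms were the alternatives. The pathway lists, the 10 called list genes with the lowest adjusted p and the 3 most alike genes were named by rule. The comparison of cells with and without a UMI of Nos2 or Ptgs2, with the 6 genes of lowest p named in each direction, was added after the data were seen. Of 7 genes named by the rule, 6 are described; the other one and some list genes are not reported here. Members and lists were chosen with earlier results of these data known. Counting intervals are exact 95% intervals (Poisson for UMIs, Clopper-Pearson for shares) and cover counting error only; with no UMI, 3 UMIs were taken as the floor. Fits were tested on simulated data.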

Additional observations from a re-analysis of the deposited data

Results flagged for a closer look

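The fifth hashtag, named anti-PD1-MIF-DDT in the deposited files and missing from the sample labels, marked 322 long and 993 short cells, of which 229 and 649 were Lyz2 cells with C1qb or Ly6c2. In those of the long cohort Tgfb1 was at 634 CPM (498 CPM in the isotype and 466 CPM in the anti-PD-1/anti-MIF arm) and Ptgs2 at 375 CPM (165 and 99.2 CPM). In those of the short cohort Nos2 was at 80.6 CPM (54.3 CPM in the isotype and 79.8 CPM in the anti-PD-1/anti-MIF arm) and Ptgs2 at 262 CPM (220 and 222 CPM). These 4 values were singled out because their 95% counting intervals lay wholly above those of the isotype arm in data that no comparison used. Each is 1 sample and was not tested. The share of all genes with intervals apart in this way was not counted, so the 4 are not a result about these genes.

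For 3 pairings of gene, class and antibody both long pairs went one way and both short pairs the other, on the scale of log2(CPM + 10). The share of all genes with this pattern was not counted, so the 3 are given as values only. Ptgs2 in macrophages was higher with anti-MIF in the long cohort (mean 2.60) and lower in the short cohort (-0.20), a difference of 2.80, and the interaction in the edgeR fit had an adjusted p of 0.0962. The long isotype arm was at 0 in 7 cells, where 3 UMIs would be 91.0 CPM, so that the size of the long mean depends on the added 10 and that pair has no sure direction. Tgfb1 in macrophages was lower with anti-PD-1 in the long cohort (-0.76) and higher in the short cohort (0.48), a difference of -1.24; the long isotype arm held 20 UMIs in its 7 macrophages, 14 of them in 1 cell. Ptgs2 in monocytes was lower with anti-PD-1 in the long cohort (-0.24) and higher in the short cohort (0.45), a difference of -0.70. The differences for anti-PD-1 were not tested.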

How the results depend on the processing

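With 1 sample per arm and cohort, treatment effects were judged over 4 pairs only, and the macrophage arms of the long cohort held as few as 7 cells. A tally over the alternatives covered class differences of Tgfb1, Ptgs2 and Nos2 and the anti-MIF differences of Ptgs2 and Tgfb1 in monocytes. It also covered the Nos2 cohort difference and the Ptgs2 interaction in macrophages. Of these log2 differences, 279 kept direction and side of the threshold under an alternative and 1 changed sign. Another 10 newly passed the threshold and 6 no longer passed it. Other member differences, among them Ptgs2 between cohorts in monocytes, are not in the tally. The sign change was Nos2 in macrophages against monocytes, at 0.44 in the short cohort alone. For the cohort difference calls of these genes went from 0 to 1 with MULTIseqDemux, with at least 2 UMIs of each marker, with the class rule on thinned cells and with DESeq2, to 2 with cells in every class they meet, to 4 with no filter, and to between 0 and 2 with 1 arm left out, the 2 without the long anti-MIF arm. For the interaction they went to 1 with at least 2 UMIs and with no filter, and to between 0 and 1 with 1 arm left out (1 without the short isotype arm or either anti-PD-1/anti-MIF arm). The genes called in all classes ranged over left-out arms from 0 to 9 for anti-MIF (3 with all arms), 1 to 9 for anti-PD-1 (7), 224 to 656 for the cohort (862) and 21 to 91 for the interaction (19). Over all 19 alternatives they ranged from 0 to 145, 0 to 120, 224 to 1606 and 4 to 203. In the split by Nos2 the 307 became 463 with no filter, 96 in the long cohort, 101 at 1000 UMIs and 1292 with no thinning. In the split by Ptgs2 the 389 became 151 with no block, 132 in the long cohort, 202 at 1000 UMIs, 912 with no thinning and 0 in macrophages alone, with 0 hypoxia genes. Thinning to 1000 UMIs and no thinning put the shares of cells at 4.38% and 12.2% for Nos2, 44.6% and 90.9% for Tgfb1 and 13.3% and 34.6% for Ptgs2 in monocytes, and at 27.6% and 68.1% for Tgfb1 in macrophages; Ptgs2 in macrophages was at 24.9% with no thinning. The cause of these shifts was not tested.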

Other observations

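Cells that met no class rule also held member UMIs. Those with at least 2 neutrophil markers had Ptgs2 at 730 CPM in the long cohort (33 cells, 66.7% with a UMI) and 1226 CPM in the short cohort (49 cells, 75.5%), at median depths of 2428 and 1770 UMIs per cell. Those with at least 2 NK-cell markers had Tgfb1 at 388 CPM in the long (35 cells) and 655 CPM in the short cohort (128 cells). Cells with at least 2 fibroblast markers held 5 Ptges UMIs in 10 long cells and 7 in 2 short cells. The cells with both C1qb and Ly6c2 held Nos2 at 11.9 and 56.5 CPM, Tgfb1 at 467 and 486 CPM and Ptgs2 at 95.8 and 289 CPM in the long and short cohorts.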
